A study of Mus musculus with 14 samples.

Results

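The RNA labeled by the apical bait APEX2-DPP4 was set against the RNA labeled by APEX2-ACTB, the actin bait that served as a second cytoplasmic control, in mouse small intestinal organoids (sIOs). The comparison used 8 of the 14 libraries of the series, 4 of each bait, and all 55401 genes of the count table. The members were chosen by their bait labels, and libraries are called here by bait and replicate number, such as DPP4-1 and ACTB-2. All organoids had a C57BL/6J background, came from crypts of adult mice and had been transduced by lentivirus, with the vector pLVX-IRES-ZsGreen1, to express either APEX2-V5-DPP4 or APEX2-V5-ACTB. Both groups went through the same labeling with biotin-phenol and H2O2 and the same capture on streptavidin. The 4 libraries of APEX2-GFP, the other cytoplasmic bait, are given beside the main values. No source used here states that replicate libraries were grown as separate cultures. The p-values therefore cover the spread among these samples only, and that spread may be technical.

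APEX2 is an engineered ascorbate peroxidase. With H2O2 it turns biotin-phenol into short-lived radicals that attach biotin to RNA and protein close to the enzyme, so a library reports on what the organoid expressed and on what lay near the bait. Both contributions enter each count, and without a library of unlabeled RNA in this comparison they cannot be told apart. DPP4 is a membrane peptidase of the brush border, the dense carpet of microvilli on the apical face of absorptive enterocytes, where digestive enzymes and nutrient transporters are anchored. ACTB is cytoplasmic beta-actin, which forms filaments under the cell membrane and in the core of microvilli, and its fusion gave the weaker V5 staining of the 2 cytoplasmic baits.

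Depth ranged over 9763053 to 32768737 counts per library for APEX2-DPP4 and over 29508479 to 36388659 for APEX2-ACTB, and 13468 to 18122 and 13692 to 16364 genes had at least 10 counts. ACTB-2 stood apart from the other libraries of its bait. Across 7487 genes, its log2 CPM correlated with ACTB-1, ACTB-3 and ACTB-4 at r = 0.341 to 0.514, while those 3 correlated with each other at 0.667 to 0.78. With the DPP4 libraries ACTB-2 correlated at 0.437 to 0.80, and the DPP4 libraries among themselves at 0.374 to 0.776. DPP4-4 also stood apart from its bait, at 0.374 to 0.576 with the other DPP4 libraries. It correlated at 0.73 to 0.797 with ACTB-1, ACTB-3 and ACTB-4, and at 0.931 with GFP-1. DPP4-3 correlated with no library above 0.524. These correlations run over genes of the same libraries and are given as a description. The share of counts in Cmss1, Jarid2, Filip1l and Cdk8, singled out after their values were seen, ranged over 7.20% to 26.97% in APEX2-DPP4 and 4.91% to 11.46% in APEX2-ACTB, and its part in the results was not tested. The epithelial identity of the material was plain, with summed keratins of 1583 to 6131 normalized CPM in APEX2-DPP4 and 4853 to 11000 in APEX2-ACTB. Markers of mesenchymal cells summed to 1.26 to 7.46 normalized CPM in APEX2-DPP4 and 0.0363 to 2.60 in APEX2-ACTB, and those of immune and endothelial cells to 10.8 to 68.5 and 9.20 to 29.5. Vim, an intermediate filament gene, made up most of the mesenchymal sum in DPP4-1, and was at 7.25, 3.46, 0.126 and 1.02 normalized CPM in DPP4-1 to DPP4-4 and at 0.113 or less in ACTB-1, ACTB-2 and ACTB-4, with 0.155 in ACTB-3. The part of these cells in the results was not tested. All levels are normalized CPM, with TMM scaling shared by the 12 libraries of the 3 baits.

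The genes of the baits themselves did not set the groups apart. Dpp4 (ENSMUSG00000035000.8, chromosome 2 of GRCm38, 62330073 to 62412231) was at 236, 111, 66.4 and 54.0 normalized CPM in DPP4-1 to DPP4-4, against 0.293, 155, 0.371 and 0.342 in ACTB-1 to ACTB-4. ACTB-2 thus lay within the range of the DPP4 libraries, and the other ACTB libraries lay below every DPP4 library. The APEX2-GFP libraries, which carry no DPP4 construct, were at 37.1, 108, 98.9 and 44.7. Over all 8 libraries the log2 fold change of Dpp4 was 1.64 (standard error 2.15, adjusted p = 1.00 from edgeR), and without ACTB-2 it was 8.51 (standard error 0.93, adjusted p = 3.62e-06). Gm13561, an antisense gene that overlaps Dpp4, followed it at 72.2, 59.3, 53.3 and 12.9 normalized CPM in the DPP4 libraries and at 0.225, 81.5, 0.155 and 0.314 in the ACTB libraries. The library kit does not mark strand, so reads of Dpp4 and Gm13561 cannot be told apart. Actb (chromosome 5, 142903115 to 142906754) was at 2140, 1230, 2650 and 1310 normalized CPM in DPP4-1 to DPP4-4, against 1550, 1890, 1800 and 2420 in ACTB-1 to ACTB-4, and the groups overlapped (log2 fold change 0.02, standard error 0.62). Whether reads from the constructs were counted for Dpp4 or Actb was not tested.

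**Figure D1:**
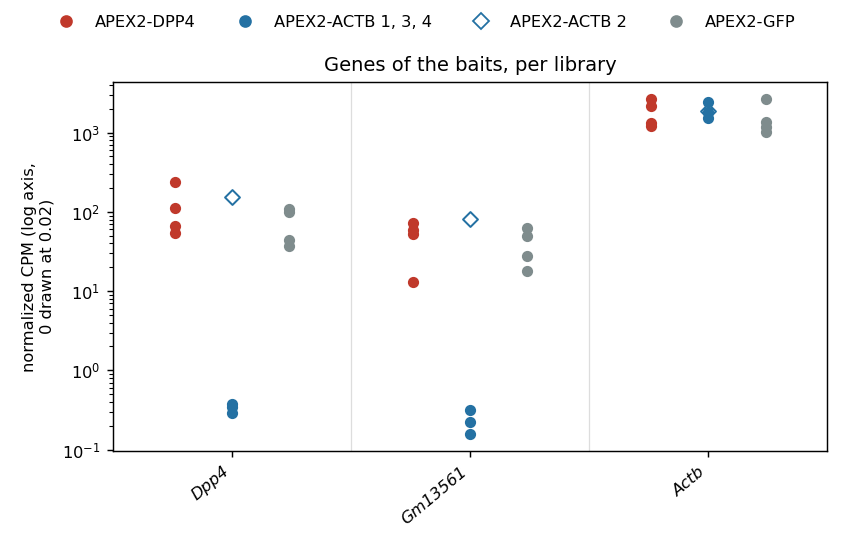
Normalized CPM of Dpp4, its antisense gene Gm13561 and Actb on a log axis, with 1 point for each APEX2-DPP4, APEX2-ACTB and APEX2-GFP library and ACTB-2 as an open diamond. For Dpp4, ACTB-2 sits at 155 among the DPP4 and GFP libraries, while the other ACTB libraries sit at 0.293 to 0.371.

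With all 8 libraries, no gene passed the test of APEX2-DPP4 against APEX2-ACTB. Of 27451 genes tested with edgeR's quasi-likelihood test, 0 (0%) passed the call rule (adjusted p below 0.05 together with a log2 difference above 1 in size), and 1693 (6.17%) had an unadjusted p under 0.05, of which 1084 (3.95%) had higher levels in APEX2-DPP4 and 609 (2.22%) lower ones. The smallest adjusted p was 0.466, for Pde3b. Other tests of the same libraries gave other counts: 141 genes with DESeq2, 1 with edgeR's exact test (Pde3b), 0 with limma voom and 60 when genes under 5 counts were kept. Leaving out any single library other than ACTB-2 gave 0 calls, and leaving out ACTB-2 gave 56.

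Genes were also counted as separated where every DPP4 library lay on one side of every ACTB library. Among the 9734 genes averaging at least 10 normalized CPM, 304 (3.12%) were separated in this way, 68 (0.699%) higher and 236 (2.42%) lower in APEX2-DPP4. Of these, 167 had a log2 fold change over 1 in size, and 161 of the 167 kept that size without ACTB-2, while their separation and direction without it are fixed by the definition. Leaving out any library makes separation easier, so the count can rise from that alone. Without ACTB-2, 1125 of 9740 genes were separated, 399 higher and 726 lower. Leaving out DPP4-1, DPP4-4, ACTB-3, ACTB-4, DPP4-3 or DPP4-2 gave 613, 879, 542, 500, 477 or 474, and leaving out ACTB-1 gave 433. With fewer libraries separation also corresponds to a larger p, so these counts cannot be set against the 304. With 4 libraries against 4, separation corresponds to p = 0.029 in a two-sided exact permutation test, the smallest p that the design allows, and the 3.12% of genes separated is close to that p. The split between directions depended on the scaling: of the separated genes 22.4% were higher with TMM, 48.2% with DESeq2's size factors (122 higher and 131 lower) and 7.88% with library totals alone (32 higher and 374 lower). All 68 of the higher genes and 132 of the 236 lower ones stayed separated with DESeq2's size factors, and 28 and 186 with library totals.

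Among the 10 separated genes higher in APEX2-DPP4 with the smallest p was Cited2. Cited2, which encodes a transcriptional co-regulator that binds CBP and p300 (chromosome 10, 17723218 to 17725674), was at 145, 141, 107 and 145 normalized CPM in DPP4-1 to DPP4-4, against 56.1, 37.4, 15.3 and 55.6 in ACTB-1 to ACTB-4. Its log2 fold change was 1.79 (standard error 0.54, adjusted p = 0.806 from edgeR, as for the other 9 genes) with all libraries and 1.71 without ACTB-2, and the APEX2-GFP libraries, at 25.8 to 61.7, were also below every DPP4 library. Dhcr7, the last enzyme of cholesterol synthesis by one route, was at 148, 130, 147 and 70 normalized CPM in the DPP4 libraries, against 35.4, 61.0, 51.4 and 28.3 in the ACTB libraries (log2 fold change 1.57, standard error 0.52, and 1.75 without ACTB-2). In Stom, which encodes the membrane scaffold stomatin, DPP4-2 at 38.2 and DPP4-4 at 40.5 lay close above ACTB-2 at 33.0, while DPP4-1 and DPP4-3 reached 109 and 170 normalized CPM. Fam20a, a pseudokinase gene of the secretory pathway, had the largest fold change of the 10, with 37.0, 14.2, 16.2 and 7.39 normalized CPM in the DPP4 libraries, against 0.451, 3.70, 0.464 and 3.14 in the ACTB libraries (log2 fold change 3.34, standard error 0.99).

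DPP4-3 was the highest library in several of these genes. Sephs2, which encodes the selenophosphate synthetase of selenoprotein synthesis, was at 1160, 618, 2720 and 553 normalized CPM in DPP4-1 to DPP4-4, against 189, 497, 296 and 137 in ACTB-1 to ACTB-4. Gm44729 overlaps Sephs2 on the opposite strand and showed the same order, at 425, 265, 1400 and 214 against 78.4, 197, 124 and 53.5 normalized CPM, so the pair cannot be told apart and counts as 1 signal. Gm45760, on the opposite strand of Got2, was at 56.5, 37.2, 243 and 40.7 normalized CPM in the DPP4 libraries, against 4.69, 16.5, 33.6 and 26.1 in the ACTB libraries, and lost its separation with library totals alone. Fam135a reached 550 normalized CPM in DPP4-3 and 137 to 152 in the other DPP4 libraries, against 53.9 to 92.1 in the ACTB libraries. Slc25a12, a mitochondrial aspartate-glutamate carrier, was at 37.9 to 105 normalized CPM in APEX2-DPP4, against 13.1 to 31.2 in APEX2-ACTB. For Gm43305, a gene without a known function, DPP4 libraries were at 154 to 294 normalized CPM and ACTB libraries at 9.56 to 86.8, with GFP libraries spread over 18.2 to 310.

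The separated genes lower in APEX2-DPP4 were led by Pde3b, a phosphodiesterase that breaks down cyclic AMP (ENSMUSG00000030671.9, chromosome 7, 114415281 to 114539251). It was at 0.213, 1.58, 0.818 and 0.683 normalized CPM in DPP4-1 to DPP4-4, against 19.9, 17.9, 21.7 and 56.2 in ACTB-1 to ACTB-4. ACTB-2 lay with its own bait here. The log2 fold change was -5.03 (standard error 0.90, adjusted p = 0.466) with all libraries and -5.24 (standard error 0.93, adjusted p = 0.0051) without ACTB-2. The APEX2-GFP libraries, at 14.9, 1.59, 0.13 and 9.15, were all below the ACTB libraries, and their lowest was also below the DPP4 libraries. Cdk14, a cyclin-dependent kinase of the cell membrane, was at 1.66, 1.56, 1.95 and 2.39 normalized CPM in the DPP4 libraries, against 30.9, 24.5, 10.1 and 35.3 in the ACTB libraries (log2 fold change -3.66, standard error 0.80, adjusted p = 0.806, as for the 8 genes that follow, and -3.72 without ACTB-2, adjusted p = 0.0659). Both groups were tight for this gene relative to the gap between them.

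Tmsb4x, which encodes a thymosin that holds actin monomers, was lower in every DPP4 library, at 39.0, 138, 25.5 and 93.7 normalized CPM in DPP4-1 to DPP4-4, against 419, 281, 479 and 472 in ACTB-1 to ACTB-4, a log2 fold change of -2.40 (standard error 0.63) and of -2.58 without ACTB-2. The APEX2-GFP libraries, at 83.1 to 158, were below every ACTB library as well. Cd9, a tetraspanin of the cell membrane, was at 23.4, 41.0, 66.6 and 103 normalized CPM in the DPP4 libraries, against 341, 126, 427 and 287 in the ACTB libraries. Tnfrsf21, a death receptor of the TNF receptor family, was at 7.33 to 20.4 normalized CPM in APEX2-DPP4 and 40.2 to 148 in APEX2-ACTB. Sox21, a transcription factor gene, was at 3.88 to 37.6 and 40.2 to 144, and overlapped with DESeq2's size factors.

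Akr1b3, the aldose reductase, was at 6.56, 8.39, 3.21 and 24.2 normalized CPM in the DPP4 libraries, against 42.6, 42.9, 99.5 and 46.8 in the ACTB libraries (log2 fold change -2.38, standard error 0.66). Gm14546 overlaps it on the opposite strand, had nearly the same values and counts with it as 1 signal. AW112010, a transcript known in mouse immune cells to be induced by inflammation, was at 0.44 to 4.14 normalized CPM in APEX2-DPP4 and 10.5 to 54.0 in APEX2-ACTB. The gene 2210407C18Rik was at 58, 92.7, 51.7 and 78.4 normalized CPM in the DPP4 libraries, against 1510, 157, 407 and 158 in the ACTB libraries (log2 fold change -2.91), with ACTB-1 and ACTB-3 the highest.

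**Figure D2:**
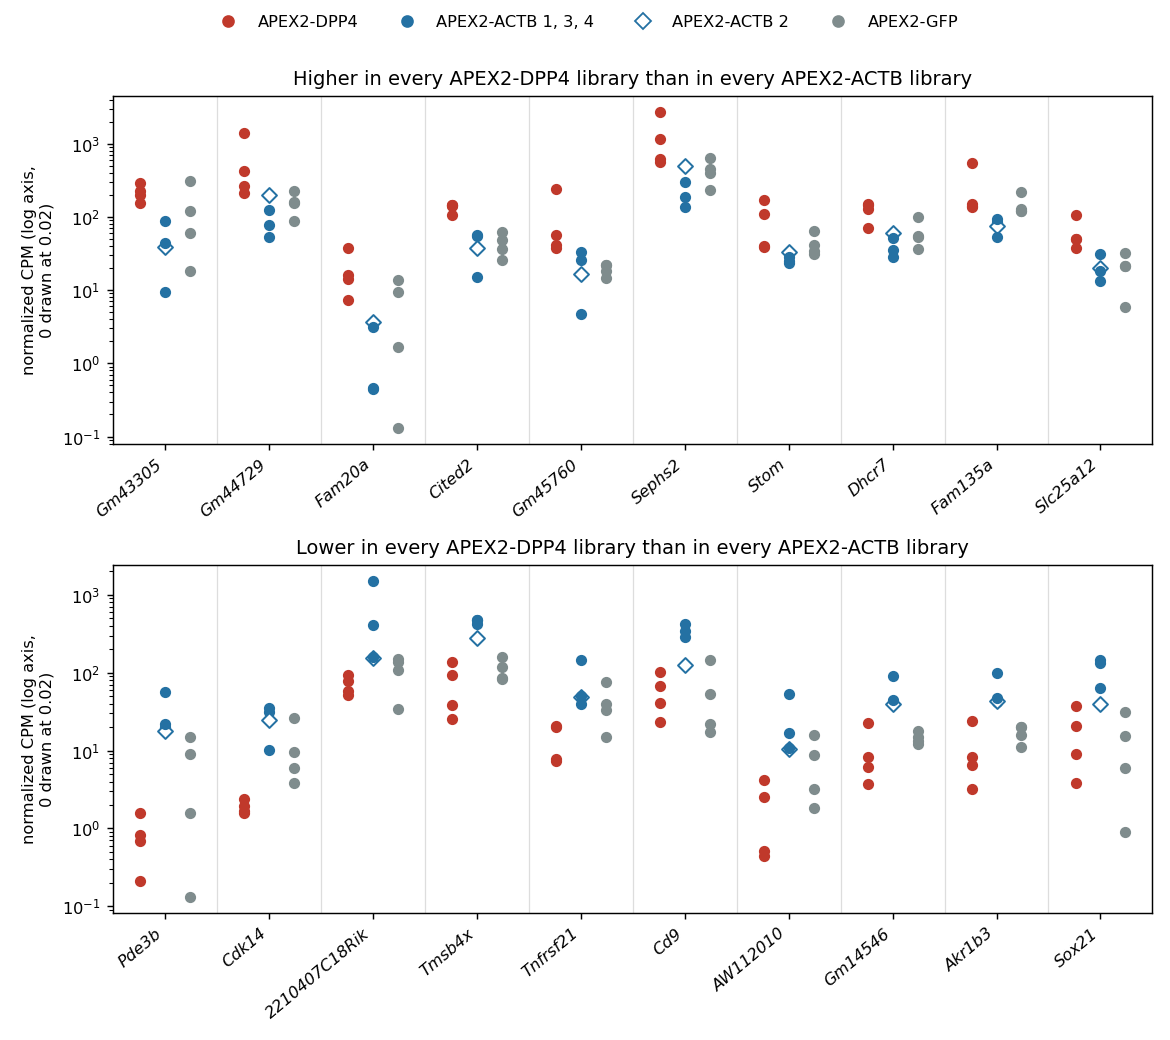
Normalized CPM on a log axis of the 10 genes per direction with the smallest p among those whose DPP4 and ACTB libraries do not overlap, 1 point per library, with ACTB-2 as an open diamond and the GFP libraries in grey. ACTB-2 lies on the same side of every DPP4 library as ACTB-1, ACTB-3 and ACTB-4. For Pde3b the GFP libraries spread over 0.13 to 14.9, below every ACTB library.

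Without ACTB-2, 56 of 27304 genes (0.205%) passed the call rule. In APEX2-DPP4, 40 (0.146%) rose and 16 (0.0586%) fell. This library was singled out with its values known, so these p-values are not independent evidence. With all 8 libraries, edgeR's quasi-likelihood test called 0 of the 56, the fit that kept genes under 5 counts called 17, DESeq2 called 8, edgeR's exact test called 1 and limma voom called 0, while the replicate block called 24. The log2 fold change kept its sign in 55 and was over 1 in size in 51, the exception in sign being Slc30a2, a zinc transporter gene, at 15.5, 18.4, 12.8 and 0.228 normalized CPM in the DPP4 libraries and 0.18, 78.8, 0.0619 and 0.0285 in the ACTB libraries (log2 fold change 6.97 without ACTB-2 and -0.68 with it). An unadjusted p under 0.05 with all 8 libraries was kept by 7 of the 40 higher and by 16 of the 16 lower genes. Over all genes the shares were 3.95% higher and 2.22% lower, but the 56 were selected from these same libraries, so this is no test. The median log2 fold change of the 40 higher genes was 5.84 without ACTB-2 and 2.09 with it, and that of the 16 lower genes was -5.60 and -5.14.

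The 56 calls also turned on the libraries that remained. Leaving out DPP4-1 or DPP4-4 as well gave 327 or 683 calls, and leaving out DPP4-2, DPP4-3 or ACTB-1 as well gave 25, 29 or 31. With edgeR's filterByExpr, which removes more low genes, 6 were called. ACTB-2 was nearer to the DPP4 mean than to the mean of the other ACTB libraries in 55 of the 56 (98.2%), against 56.2% of all genes tested, and within the DPP4 range in 37 (66.1%), against 73.5%. The 56 were selected by leaving this library out, so these shares are partly fixed by that choice and are no test. All 56 were separated without ACTB-2, and only 5 of them in all 8 libraries. These were Nid2, Rnf152 and Hsd17b2, higher in APEX2-DPP4, and Pde3b and Gast, lower. Hsd17b2 and Gast averaged under 10 normalized CPM, the minimum used for separated genes, so 3 of the 5 met it. Of all genes at that minimum 3.12% were separated, and this count is no test either.

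Among the higher genes, Nid2 encodes nidogen-2, a basement membrane protein (chromosome 14, 19751265 to 19811787). It was at 36.7, 23.2, 29.6 and 34.8 normalized CPM in DPP4-1 to DPP4-4, against 0.225, 17.5, 0.836 and 0.143 in ACTB-1 to ACTB-4. Its log2 fold change was 2.80 (standard error 1.35, adjusted p = 0.849), and 6.33 (standard error 1.01, adjusted p = 0.00107) without ACTB-2. It overlaps Rtraf on the opposite strand, and the pair cannot be told apart. Rnf152, a lysosomal ubiquitin ligase, was at 22.4, 17.7, 26.4 and 8.08 normalized CPM in the DPP4 libraries, against 0.203, 7.0, 0 and 0.0571 in the ACTB libraries, so ACTB-2 lay just below DPP4-4. Hsd17b2, which oxidizes steroid hormones and was chosen here after its values were seen, was at 5.46, 14.5, 23.5 and 28.6 against 0.135, 4.64, 0.248 and 0.0856 normalized CPM.

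In the other higher genes ACTB-2 overlapped the DPP4 libraries. Fam234b (chromosome 6, 135197977 to 135244955) was at 74.5, 68.7, 83.7 and 8.19 normalized CPM in DPP4-1 to DPP4-4, against 0.158, 27.5, 0.124 and 0.143 in ACTB-1 to ACTB-4. Without ACTB-2 its log2 fold change was 8.71 (standard error 1.02, adjusted p = 8.44e-06), and with it 3.15 (adjusted p = 0.970). Slc16a10, an aromatic amino acid transporter, was at 99.3, 22.0, 25.6 and 18.1 normalized CPM in the DPP4 libraries, against 0.428, 157, 0.991 and 0.40 in the ACTB libraries. ACTB-2 was the highest of the 8 libraries for Slc16a10, and its log2 fold change was 6.18 without that library and 0.11 with it. Tbx3, a transcription factor gene, showed the same arrangement, at 14.5 to 54.0 normalized CPM in APEX2-DPP4, at 67.4 in ACTB-2 and at 0.0676 to 0.402 in the other ACTB libraries. Tbc1d24, a regulator of vesicle traffic, was at 18.8 to 83.3 normalized CPM in APEX2-DPP4, at 40.1 in ACTB-2 and at 0.428 to 2.26 in the others, and Sema4g, a membrane semaphorin, at 48.5 to 230, 130 and 2.48 to 7.51.

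Several of the 40 belong to enterocyte metabolism and are named here after their values were seen. Ehhadh, an enzyme of peroxisomal fatty acid oxidation, was at 390, 90.8, 113 and 32.4 normalized CPM in the DPP4 libraries, against 4.33, 128, 4.95 and 8.48 in the ACTB libraries. Acsl1, which activates long-chain fatty acids, was at 179, 92.1, 278 and 63.9 against 9.06, 65.9, 23.3 and 12 normalized CPM, and its log2 fold change of 3.44 without ACTB-2 remained at 2.55 with it. Gstm3, a glutathione transferase, was at 1610, 1870, 1390 and 116 against 62.8, 1920, 32.8 and 7.16. Slc3a1, the heavy subunit of an apical cystine and dibasic amino acid transporter, was at 35.6 to 355 normalized CPM in APEX2-DPP4, at 95.6 in ACTB-2 and at 4.87 to 16.7 in the other ACTB libraries. In these genes ACTB-2 was above all other ACTB libraries, and the DPP4 library with the lowest value was DPP4-4.

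Where APEX2-ACTB was the higher bait, adding 1 library at or near 0 can lower its mean only slightly, so the small move of these 16 fold changes says nothing of how ACTB-2 compares. Inhba, which encodes the beta A subunit of activin and inhibin (chromosome 13, 16011851 to 16031621), was at 0.0426, 0.052, 0.126 and 0.228 normalized CPM in DPP4-1 to DPP4-4, against 20.4, 0, 16.3 and 38.8 in ACTB-1 to ACTB-4. Without ACTB-2 its log2 fold change was -7.91 (standard error 1.16, adjusted p = 0.000534), and with it -7.42 (standard error 1.67, adjusted p = 0.806). Gm48444, on the opposite strand of Inhba, was at 0 to 0.114 normalized CPM in APEX2-DPP4, at 0 in ACTB-2 and at 13.1 to 29.6 in the other ACTB libraries, and counts with Inhba as 1 signal. Gast, the gastrin gene, was at 0.0853, 0.026, 0.0629 and 0 normalized CPM in the DPP4 libraries, against 21.9, 1.05, 2.51 and 6.56 in the ACTB libraries, and the GFP libraries were at 0.0877 or less. Gast was the 1 lower called gene, besides Pde3b, in which ACTB-2 was above every DPP4 library.

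In the other lower genes ACTB-2 was not above every DPP4 library. Ppp2r2b, a regulatory subunit of the phosphatase PP2A, was at 0.0426 to 1.95 normalized CPM in APEX2-DPP4, at 0 in ACTB-2 and at 28.1 to 63.6 in the other ACTB libraries. Cmtm8, a transmembrane protein gene, was at 0.649 to 2.43, 0.0725 and 31.7 to 35.0, and Capsl, a calcium-binding protein gene, at 0.128 to 0.569, 0 and 11 to 22.5. Ccdc3, which encodes a secreted protein, was at 0.128 to 3.59 normalized CPM in APEX2-DPP4, at 0.109 in ACTB-2 and at 14.7 to 40.3 in the others, and AI467606 at 0 to 1.64, 0.326 and 13.7 to 46.0. Gm43948, on the opposite strand of Pdzrn3, was at 0.341 to 4.59, 0.471 and 34.4 to 56.8. Nupr1, a stress-induced chromatin protein gene, was at 105, 81.3, 38.8 and 125 normalized CPM in the DPP4 libraries, against 1200, 102, 1400 and 344 in the ACTB libraries, and Cd24a, a surface glycoprotein gene of crypt cells, at 29.9, 89.2, 23.8 and 75.3 against 370, 44.3, 774 and 408. Nupr1 and Cd24a were chosen after their values were seen.

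**Figure D3:**
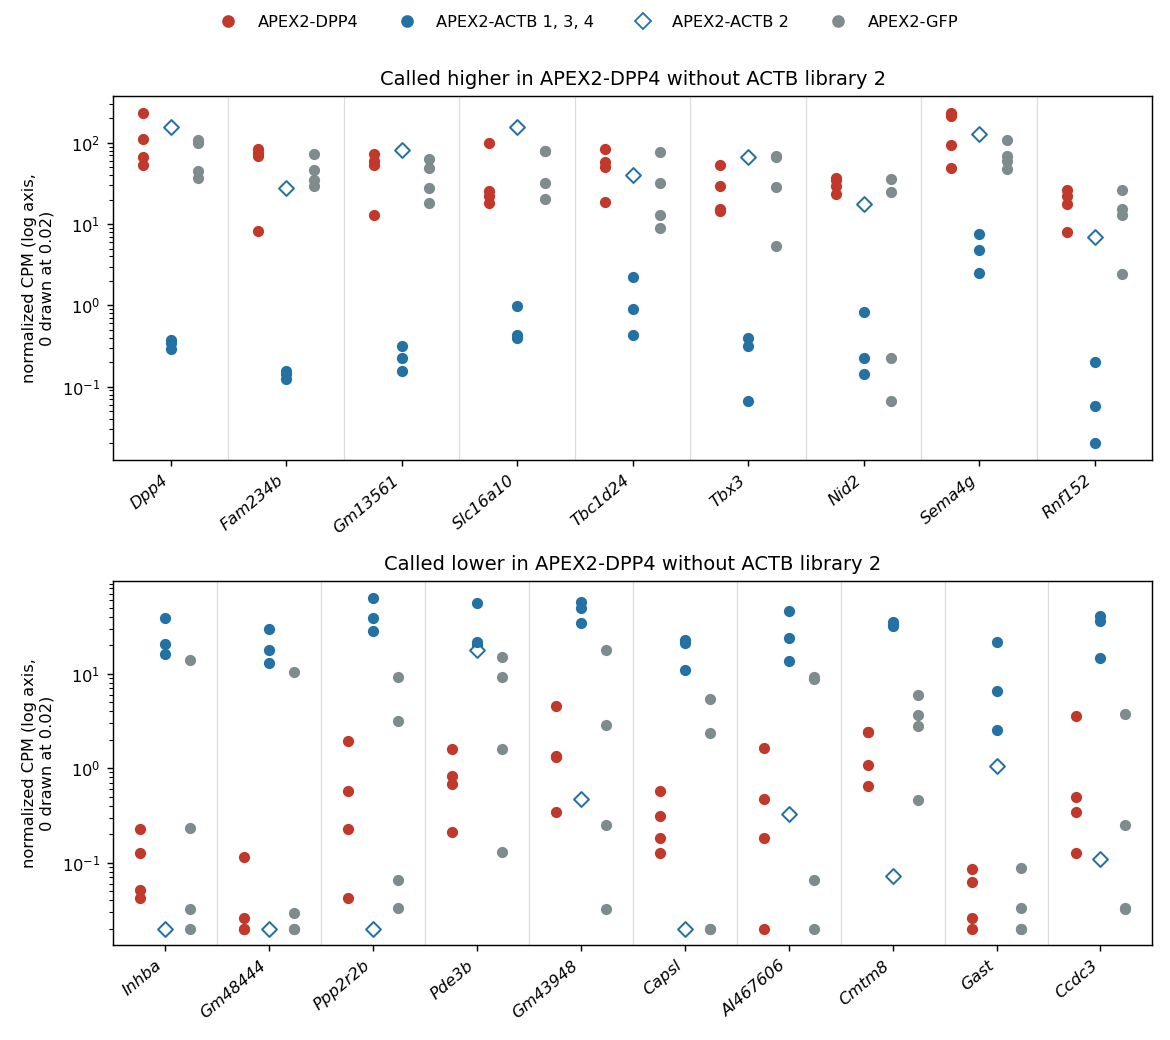
Normalized CPM on a log axis, with values of 0 drawn at 0.02, of 9 higher and 10 lower genes from the 10 per direction with the smallest p among those called without ACTB-2, 1 point per library. ACTB-2, the open diamond, lies among or next to the DPP4 libraries in most of these genes, but at 17.9 with the other ACTB libraries for Pde3b and at 1.05 above every DPP4 library for Gast.

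The same genes were set beside APEX2-GFP. In the fit of APEX2-DPP4 against APEX2-GFP, which shares the DPP4 libraries, 0 of 26136 genes (0%) were called with edgeR, and 1534 (5.87%) had an unadjusted p under 0.05. Of the 56 genes called without ACTB-2, 0 were called and 5 had an unadjusted p under 0.05 in that fit. The median log2 fold change of the 40 higher genes was 0.68 against APEX2-GFP, and that of the 16 lower genes -1.56. The mean of the GFP libraries was nearer to the DPP4 mean than to that of ACTB-1, ACTB-3 and ACTB-4 for 50 of the 56 (89.3%), against 53.6% of all genes tested. For 42 (75%), against 6.24%, every GFP library was separated from those 3 ACTB libraries on the side of APEX2-DPP4. The 56 were selected for a difference from the same 3 libraries, so these counts are no test either. For Fam234b, the GFP libraries were at 29.5, 34.7, 72.6 and 46.7 normalized CPM, and for Nid2 at 36.1, 0.0663, 0.228 and 24.9.

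**Figure D4:**
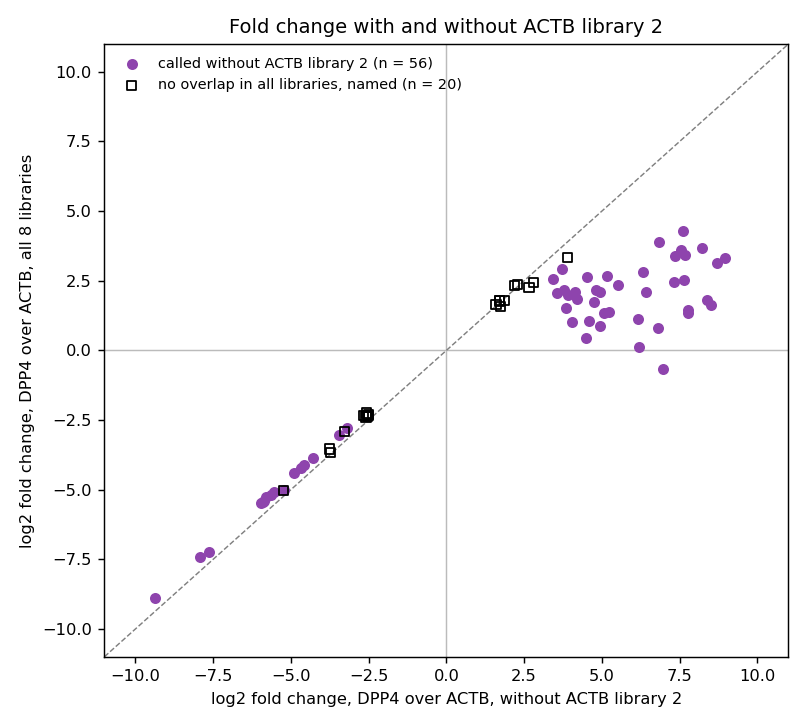
Log2 fold change of APEX2-DPP4 over APEX2-ACTB with all 8 libraries (y) against that without ACTB-2 (x), for the 56 genes called without ACTB-2 (filled) and the 20 named genes whose libraries do not overlap (squares), with a dashed line of equality. The higher called genes have medians of 5.84 on x and 2.09 on y, and the lower ones of -5.60 and -5.14, which a single added low library can move only slightly.

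Gene groups were described by counts and medians, without a set test, and with no call among their members in the fit of all 8 libraries. Separated members stand beside shares of 0.699% higher and 2.42% lower over all genes averaging at least 10 normalized CPM. Counts of separated members used a lower minimum, a mean of at least 1 normalized CPM, so these shares are not a matched reference. Over all 27451 genes tested 14297 were above 0, and the median log2 fold change was 0.05 with all libraries and -0.01 without ACTB-2. These are bulk libraries, in which fewer cells of a type and less RNA per cell cannot be told apart. Genes of the absorptive enterocyte were mostly higher in APEX2-DPP4, and their size depended on ACTB-2. Of 16 digestive enzymes of the brush border tested, 14 were higher (median 1.06, and 5.10 without ACTB-2). Among them 1 had an unadjusted p under 0.05 from edgeR, against 3.95% of all genes higher at that p. Their summed level was 12610, 1708, 2586 and 258 normalized CPM in DPP4-1 to DPP4-4, against 625, 8282, 136 and 43.8 in ACTB-1 to ACTB-4. DPP4-1 and ACTB-2 were the highest libraries and DPP4-4 was below ACTB-1, so the baits overlapped, and without DPP4-1 the median was -0.20. Mgam, a maltase that digests starch, was at 997, 168, 479 and 6.60 normalized CPM in the DPP4 libraries, against 59.0, 651, 10.3 and 2.83 in the ACTB libraries, and the proline-specific peptidase gene Xpnpep2 at 9.08, 14.8, 5.79 and 0 against 0.0225, 0.471, 0.341 and 0.143.

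The other enterocyte groups had the same arrangement. All 19 genes of lipid absorption and chylomicron assembly were higher (median 1.00, and 3.18 without ACTB-2, and -0.15 without DPP4-1), with a summed level of 60600, 6755, 12230 and 1423 normalized CPM in the DPP4 libraries, against 2273, 38540, 1093 and 1141 in the ACTB libraries. Apob, the backbone protein of chylomicrons, was at 2880, 307, 2840 and 123 normalized CPM against 187, 1680, 45.1 and 150. Of 26 genes of xenobiotic metabolism 25 were higher (median 1.00, and 4.87 without ACTB-2, and -0.09 without DPP4-1), among them Cyp2c65, a cytochrome P450, at 376 to 4820 normalized CPM in APEX2-DPP4, 1160 in ACTB-2 and 6.84 to 100 in the other ACTB libraries. Of 31 apical transporters 25 were higher (median 0.95, and 4.07 without ACTB-2, and 0.49 without DPP4-1). Of 19 structural genes of the brush border 18 were higher (median 0.61, and 2.45 without ACTB-2, but 0.06 without DPP4-1 and -0.06 against APEX2-GFP). Pls1, which bundles actin filaments in microvilli, was at 1220, 423, 2300 and 385 normalized CPM in the DPP4 libraries, against 178, 999, 145 and 170 in the ACTB libraries. Slc34a2, a phosphate transporter gene, was at 0.114 to 34.1 normalized CPM in APEX2-DPP4 and low in APEX2-ACTB, at 0 to 0.544. Basolateral transporters and receptors, of the opposite face of the cell, were also higher in 16 of 20 (median 0.60, and 1.13 without ACTB-2, and 0.22 without DPP4-1).

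Metabolic groups followed. Of 16 glycolytic genes 15 were higher in APEX2-DPP4 (median 0.77, and 1.48 without ACTB-2, and 0.30 without DPP4-1). Pfkp, a phosphofructokinase, was separated in all 8 libraries, at 540, 495, 1030 and 671 normalized CPM in DPP4-1 to DPP4-4, against 176, 477, 127 and 189 in ACTB-1 to ACTB-4, while Ldha, lactate dehydrogenase A, was at 7710, 2350, 3470 and 1850 against 376, 3200, 751 and 666, with ACTB-2 inside the DPP4 range. Fatty acid oxidation and ketogenesis had 17 of 19 genes higher (median 0.59, and 1.51 without ACTB-2, but 0.08 without DPP4-1). Among them were Slc25a20, the mitochondrial carnitine carrier, and Bdh1, a ketone body enzyme. Slc25a20 was at 18.3 to 257 normalized CPM in APEX2-DPP4 and 17.5 to 62.0 in APEX2-ACTB, and Bdh1 at 80.1 to 318 and 50.6 to 159. Cholesterol synthesis had 17 of 20 genes higher (median 0.42, and 0.66 without ACTB-2), 2 of them separated, against 0.699% of all genes. In iron and metal handling 10 of 14 were higher (median 0.84, but 0.27 without DPP4-1 and 0.04 against APEX2-GFP). Tfrc, the transferrin receptor, was separated at 235, 501, 319 and 346 normalized CPM against 68.9, 215, 170 and 212, though not with library totals alone. The nuclear-encoded respiratory chain had 23 of 32 genes higher (median 0.16, but -0.02 with library totals and -0.22 without DPP4-1), with Atp5b, a subunit of ATP synthase, at 10300 normalized CPM in DPP4-3 and 1410 to 2310 in the other DPP4 libraries, against 838 to 1540 in APEX2-ACTB. Mitochondrially encoded mRNAs had a median of 0.54, but of -0.32 without DPP4-1 and -0.28 without DPP4-2, and both mitochondrial ribosomal RNAs were higher (median 1.24).

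Interferon-stimulated genes were the group furthest below 0. All 33 tested were lower in APEX2-DPP4 with all 8 libraries. Of these, 11 had an unadjusted p under 0.05 from edgeR, against 2.22% of all genes lower at that p. The median log2 fold change was -2.85, or -3.16 without ACTB-2. Leaving out single libraries moved the median over -3.70 to -2.01, and DESeq2's size factors and library totals gave -2.78 and -3.26. The summed level was 564, 115, 427 and 672 normalized CPM in DPP4-1 to DPP4-4, against 2222, 1115, 4105 and 171 in ACTB-1 to ACTB-4. ACTB-4 was thus within the DPP4 range and the other 3 ACTB libraries, ACTB-2 included, above it. The GFP libraries were as uneven, at 360, 2655, 1836 and 214. Irf9, a subunit of the transcription factor that drives these genes, was separated at 26.7, 6.73, 5.28 and 23.0 normalized CPM in the DPP4 libraries, against 92.1, 81.9, 84.3 and 27.3 in the ACTB libraries (log2 fold change -2.14, standard error 0.64), though not with DESeq2's size factors. Irgm1, an interferon-induced GTPase, was at 17.8 to 44.4 normalized CPM in APEX2-DPP4 and 33.7 to 283 in APEX2-ACTB. In antigen presentation 11 of 13 genes were lower (median -1.21), and Tapbp, which loads peptides onto MHC class I, was separated at 86.8, 33.3, 131 and 140 against 207, 200, 256 and 203 normalized CPM.

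Genes of the cytoskeleton and of adhesion were mostly lower in APEX2-DPP4. Of 36 actin cytoskeleton genes 27 were lower (median -0.34, and -0.33 without ACTB-2, but -0.08 against APEX2-GFP). Tmsb4x was the 1 separated member, against 2.42% of all genes. The summed level was 7662, 5382, 9707 and 6992 normalized CPM in the DPP4 libraries, against 9265, 9302, 9211 and 10700 in the ACTB libraries. Tagln2, an actin-binding transgelin, was at 45.5, 181, 21.4 and 250 against 748, 215, 573 and 458 normalized CPM, where ACTB-2 fell below DPP4-4. Cell adhesion and matrix genes were lower in 24 of 30 (median -0.62, and -0.77 without ACTB-2, but 0.08 against APEX2-GFP). Cd9 was the 1 separated member, against the same 2.42%. Of 6 simple epithelial keratins 5 were lower (median -1.25, but -0.19 against APEX2-GFP). Among them Krt19 was at 665, 787, 284 and 2050 normalized CPM in the DPP4 libraries, against 3070, 2160, 1730 and 4550 in the ACTB libraries. Krt8 was at 152 to 1060 and 976 to 1630 normalized CPM, and Krt7 at 10.4 to 656 and 300 to 1810. Apical junction genes split into 11 higher and 11 lower, with a median of 0.0042 that was -0.32 with library totals.

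Markers of fetal or regenerative epithelium, a state of the gut lining seen in development and repair, were lower in 16 of 19 (median -1.22, and -1.66 without ACTB-2, -3.02 without DPP4-4 and -0.77 without ACTB-3). Against APEX2-GFP their median was only -0.02. Their summed level was 244, 112, 5720 and 6908 normalized CPM in DPP4-1 to DPP4-4, against 8973, 1525, 30260 and 31750 in ACTB-1 to ACTB-4, and ACTB-2 lay within the DPP4 range. S100a6, a calcium-binding protein gene, was at 20.4, 13.8, 7.05 and 265 normalized CPM in the DPP4 libraries, against 415, 190, 889 and 714 in the ACTB libraries. Anxa8, an annexin, was at 0.468 to 18.7 and 15.0 to 103 normalized CPM. Spp1, which encodes the secreted protein osteopontin, was at 0.639, 0.13, 15.8 and 32.2 against 199, 4.57, 596 and 456, and Ly6a at 1.11, 1.87, 9.88 and 168 against 363, 0.218, 1570 and 299. DPP4-4 was the highest DPP4 library and ACTB-2 the lowest ACTB library in each of these last 2 genes.

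Markers of the differentiated cell types varied by library. Paneth cell markers were higher in 12 of 13 (median 2.22, but 3.73 without ACTB-2, 0.81 without DPP4-2 and -0.03 against APEX2-GFP), among them Itln1, an intelectin that binds microbial sugars, at 114, 345, 468 and 778 normalized CPM in the DPP4 libraries, against 37.9, 141, 26.2 and 33.3 in the ACTB libraries. Itln1 was called without ACTB-2 (log2 fold change 3.73, standard error 0.79, adjusted p = 0.0322) and had an adjusted p of 0.806 with it. Enteroendocrine markers were higher in 17 of 19 (median 1.65, but 3.81 without ACTB-2, 0.94 without DPP4-1 and -1.12 against APEX2-GFP), with a summed level of 990, 607, 630 and 7.51 normalized CPM in the DPP4 libraries, against 158, 508, 70.4 and 67.7 in the ACTB libraries. Neurog3, the transcription factor that commits cells to this lineage, was not overlapping between baits but low, at 0.554, 8.83, 7.99 and 0.114 normalized CPM against 0.0676, 0, 0.0929 and 0. The peptide gene Nts did not overlap either, at 0.114 to 5.71 normalized CPM in APEX2-DPP4 and 0 to 0.0619 in APEX2-ACTB. Both are under the minimum of 10 normalized CPM used for separated genes among all genes. DPP4-4 had 1 count of each, so their lack of overlap rests on 1 read. Goblet cell markers were higher in 8 of 13 (median 0.49, but 2.35 without ACTB-2, 0.23 without DPP4-1 and -0.59 against APEX2-GFP), although Creb3l1, a membrane-bound transcription factor gene, was lower at 3.24 to 21.7 normalized CPM in APEX2-DPP4 against 9.61 to 99.6 in APEX2-ACTB. Antimicrobial lectins and mucosal defense genes were higher in 9 of 12 (median 0.89, but 0.21 without DPP4-1 and -0.46 with the replicate block), and tuft cell markers in 9 of 15 (median 0.30, and -0.06 with library totals). Crypt stem cell genes (10 of 17 higher, median 0.36) and proliferation genes (16 of 27 higher, median 0.27) had medians of -0.03 and -0.02 with library totals and of -0.46 and -0.11 without DPP4-4.

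Cytosolic ribosomal protein mRNAs were lower in APEX2-DPP4 in 42 of 45 genes of the large subunit and 31 of 32 of the small subunit, with a median of -0.47 for each. The difference rested on single libraries. The summed level of the large subunit was 13560, 14560, 2818 and 7873 normalized CPM in DPP4-1 to DPP4-4, against 8809, 11290, 26480 and 7548 in ACTB-1 to ACTB-4. Without ACTB-3, the highest library, the medians were 0.24 and 0.05. Against APEX2-GFP they were also above 0, at 0.35 and 0.17. Ribosome biogenesis genes were lower in 17 of 20 (median -0.32), where Rrp9, a protein of the U3 small nucleolar particle, was separated at 9.12, 29.9, 30 and 39.6 normalized CPM against 54.9, 48.0, 48.5 and 57.9. Translation factors were lower in 16 of 25 (median -0.32), but Eif4b was separated in the other direction, at 434, 618, 1890 and 350 against 306, 318, 346 and 273 normalized CPM, except with library totals. Endoplasmic reticulum chaperones were lower in 13 of 20 (median -0.17) and nuclear retained lncRNAs in 6 of 7 (median -0.64). Immediate early genes (median 0.05) and oxidative stress genes (median -0.03) changed sign with the scaling.

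**Figure D5:**
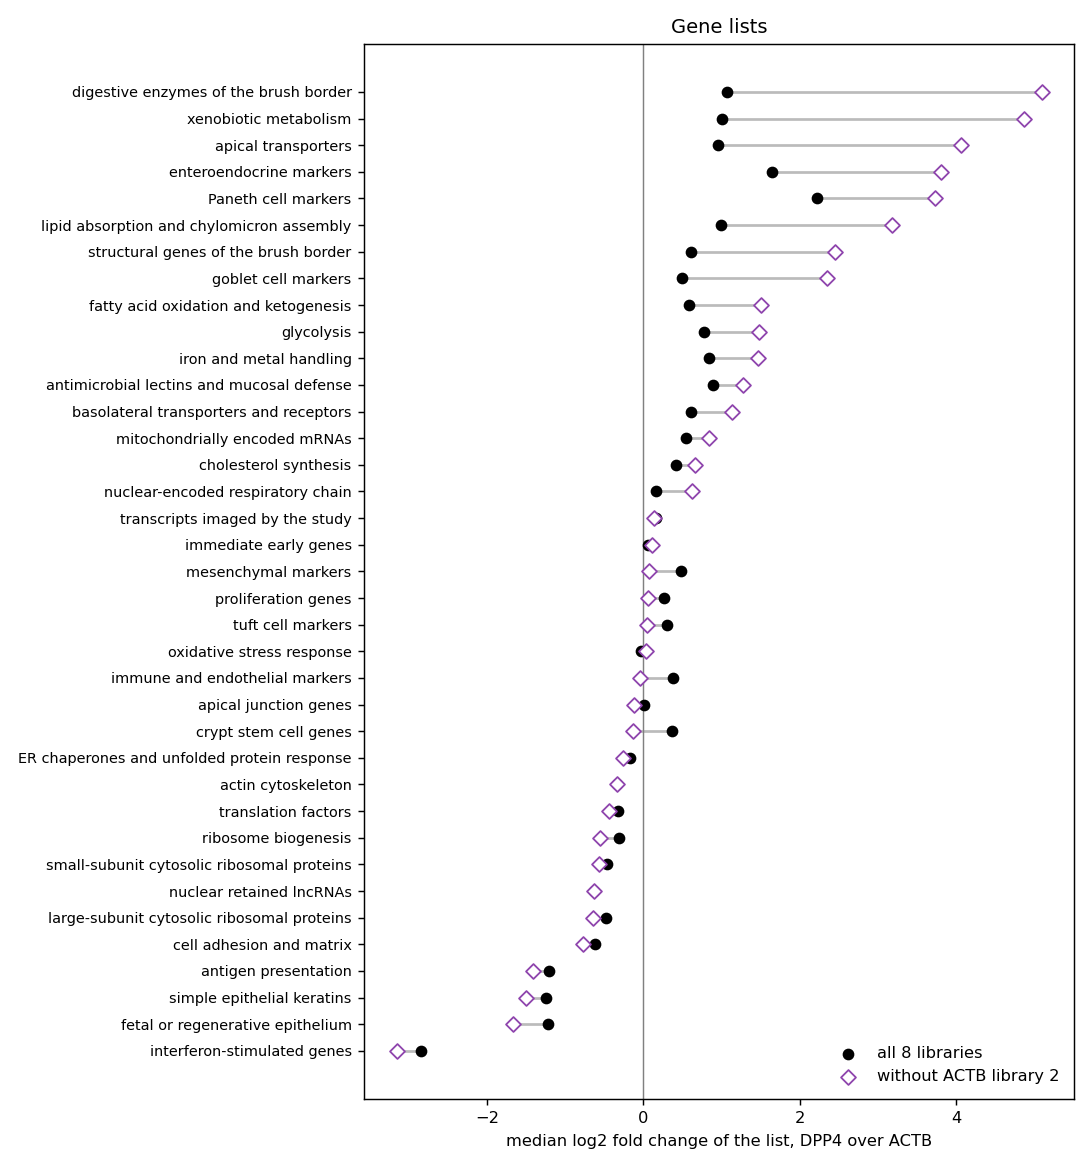
Median log2 fold change of APEX2-DPP4 over APEX2-ACTB for the 37 gene lists with 6 or more genes tested, the sex-linked list left out, with all 8 libraries (filled) and without ACTB-2 (open diamonds). Digestive enzymes lie at 1.06 and 5.10 and enteroendocrine markers at 1.65 and 3.81, while interferon-stimulated genes lie at -2.85 and -3.16.

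Of the 15 transcripts that the study imaged by smFISH, 9 had higher levels in APEX2-DPP4 and 6 had lower ones, 0 were called, and the median log2 fold change was 0.17, or -0.17 with library totals. Some of these transcripts were picked by the study for enrichment in its own APEX2-DPP4 or APEX2-GFP data, after libraries of poor quality were removed. Whether all the present DPP4 libraries were in those data is not known. Pigr, the receptor that carries IgA across the epithelium, was at 2650, 1960, 3370 and 850 normalized CPM in the DPP4 libraries, against 381, 1280, 910 and 500 in the ACTB libraries (log2 fold change 1.60, standard error 0.68, adjusted p = 0.806), and DPP4-4 lay below ACTB-2 and ACTB-3. Net1, a guanine nucleotide exchange factor gene, was at 572, 244, 372 and 86.7 against 108, 277, 99.0 and 105 normalized CPM. Lct, the lactase of the brush border, was at 196, 15.2, 94.7 and 0 normalized CPM in the DPP4 libraries, against 0.0902, 172, 0.991 and 1.17 in the ACTB libraries, a log2 fold change of 0.88 with ACTB-2 and of 6.79 without it, neither called. Wls, which escorts Wnt proteins to the cell surface, was at 11.8, 28.9, 24.0 and 68.7 against 130, 22.4, 173 and 90.1 normalized CPM (log2 fold change -1.55, standard error 0.65). Prom1, the pentaspan protein prominin-1, was at 45.8, 140, 130 and 800 against 495, 262, 1300 and 1500, and Cdh13, a cadherin anchored by a lipid, at 0.682, 4.49, 21.9 and 82.0 against 172, 3.19, 180 and 277. In Wls and Cdh13 ACTB-2 lay below DPP4-4, and without it both were lower in every DPP4 library than in every remaining ACTB library.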

How the data were processed

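RNA captured from sIOs that expressed APEX2-DPP4 or APEX2-ACTB was compared, with 4 libraries per bait and groups and replicate numbers from the sample titles. The authors deposited raw counts per gene for 14 libraries, with 0 columns of other samples. Per the submitters' processing notes and the study's methods, Nextera XT libraries were aligned to GRCm38 (STAR 2.7.9a) after adapter removal (cutadapt 4.0) and quality control (FastQC 0.11.9). HTSeq 1.99.2 counted reads per gene in default mode, which leaves out reads with several places or with several genes on the same strand. Whether its strand option was changed is not stated, so how reads over genes on opposite strands were counted is not known. The kit does not mark strand, so reads of overlapping antisense genes cannot be assigned. The authors' ComBat-seq correction for preparation dates is not in these raw counts and was not repeated, since the dates are not given in the sources used here. Which libraries the authors removed is not given either, so whether these counts hold any of them is not known.

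Of 55401 gene IDs, 54349 were named by the versioned ID and 792 by the ID without version in GENCODE annotation of GRCm38, and 260 stayed unnamed. Genes with a sum of at least 5 counts were scaled by TMM and tested with edgeR 4.0.16 (quasi-likelihood, robust, Benjamini-Hochberg over all genes tested, R 4.3.3), and standard errors were the unshrunken fold change over the root of F. Genes were called where the adjusted p was below 0.05 and the log2 difference above 1 in size. The fit was repeated without ACTB-2, and with DESeq2 1.42.0, limma 3.58.1 (voom) and other settings. Depth, at 9763053 to 36388659 counts, limits low genes most. The method was tested on simulated data with known changes. Those data held no library that stood apart from its bait, so they do not bear on ACTB-2.

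Named genes are Dpp4 and Actb, the 10 per direction with the smallest p among genes separated by bait at a mean of at least 10 normalized CPM and among those called without ACTB-2, up to 3 members per direction of each gene list, and transcripts imaged by the study. The comparison, the lists and ACTB-2 as the library to leave out were chosen with earlier results of these data known. Not every gene that the rule covers is described, and 1 of the 10 higher genes with the smallest p among those called without ACTB-2 is not reported here.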

Additional observations from a re-analysis of the deposited data

Results flagged for a closer look

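In 29 of 242 groups of 4 libraries, 1 library lay further from the others of its bait than Dixon's limit at the 95% level. Chance flags about 1 in 20 groups, but many of these genes were named because they were called only without ACTB-2, so that rate and the tally of ACTB-2 do not apply to an unselected set. ACTB-2 was that library in 16 of the 29, DPP4-4 in 4, ACTB-4 and ACTB-3 in 3 each, DPP4-3 in 2 and DPP4-1 in 1. The cause was not tested. All values are normalized CPM.

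ACTB-2 was high for these genes. It was at 155 for Dpp4, at 81.5 for Gm13561, at 27.5 for Fam234b, at 157 for Slc16a10 and at 67.4 for Tbx3, where the other ACTB libraries were all under 1. The same held for Rnf152 at 7.0, Hsd17b2 at 4.64 and Slc30a2 at 78.8. For Pls1, ACTB-2 was at 999 and the others at 145 to 178, and for Net1 it was at 277 and the others at 99.0 to 108. In summed levels ACTB-2 was high for apical transporters, at 6280 with the others at 544 to 739, and for fatty acid oxidation and ketogenesis, at 4530 with the others at 1150 to 1430. It was low for Ppp2r2b at 0, Gm43948 at 0.471, Cmtm8 at 0.0725 and Cdh13 at 3.19.

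DPP4-4 was low for Fam234b at 8.19, Gstm3 at 116 and Slc30a2 at 0.228, and in the summed level of enteroendocrine markers at 7.51, where the other DPP4 libraries were at 607 to 990. DPP4-3 was low for Cited2 at 107 and high for Fam135a at 550. DPP4-1 was low in the summed level of proliferation genes, at 215 with the others at 2000 to 2330. ACTB-3 was high for Gm14546 at 90.0, Akr1b3 at 99.5 and Tapbp at 256. ACTB-4 was high for Pde3b at 56.2, low for Irf9 at 27.3 and high in the summed level of actin cytoskeleton genes, at 10700 with the others at 9210 to 9300.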

How the results depend on the processing

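With all 8 libraries the count of calls was 0 to 56 when single libraries were left out, and 141 with DESeq2's Wald test, 1 with edgeR's exact test and 60 without a filter. It was 0 with DESeq2's size factors, library totals, limma voom, filterByExpr and a fit of 12 libraries. Without ACTB-2, where 56 genes were called, leaving out 1 more library gave 25 to 683 calls. Alternatives chosen after seeing the data gave 914 calls with DESeq2's Wald test, 179 with edgeR's exact test, 194 with limma voom and 6 with filterByExpr, and these held 56, 56, 38 and 6 of the 56 genes. Separated genes numbered 433 (without ACTB-1) to 1125 (without ACTB-2) when single libraries were left out, where separation is easier than with all 8 libraries.

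With the replicate number as a block, 166 genes were called with all 8 libraries and 308 without ACTB-2, of which 24 and 45 were among the 56. Deviations of libraries with the same number correlated at -0.211, 0.0621, -0.154 and 0.51, so the numbers were not taken as a pairing. Under the block the log2 fold change was -0.042 for Actb and 4.55 for Slc30a2.

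Of 83 genes followed over 17 alternatives 79 never changed direction. Actb ranged over -0.31 to 0.17 when single libraries were left out, and was -0.33 with library totals, -0.29 with voom and -0.065 with 12 libraries. Slc16a10 ranged over -0.78 to 6.18 and was -0.0058 with library totals. Lct ranged over -0.15 to 6.79, and Slc30a2 over -1.09 to 6.97, with 5.06 under voom. Of 38 gene lists 21 kept the sign of their median, and 17 changed it under at least 1 alternative. The median of all genes was -0.21 with library totals and 0.37 with voom, against 0.05 as reported. The causes were not tested. DPP4-4, at 9763053 counts, was the shallowest of the 8 libraries compared, which limits genes of few counts most.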
